A study of Mus musculus with 11 samples.

Results

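The 6 wild-type (WT) clones of ER-Hoxb8 granulocyte-monocyte progenitors are described here across all genes, as the baseline state of the undifferentiated cells and of how much single-cell clones of 1 genotype differ. They were chosen by their titles (WT followed by 1A, 1B, 1C, 2D, 2E or 2F) and make up 6 of the 11 libraries of the series; the other 5 are tafazzin-knockout (KO) clones, used to check Taz and to ask whether the same genes vary there. The founder cells of all clones were progenitors of C57BL/6 fetal liver, taken on embryonic day 15.5. They carry a retroviral ER-Hoxb8 gene, which joins the homeobox factor Hoxb8 to hormone-binding sequence of the estrogen receptor, and were grown with 0.5 uM beta-estradiol and stem cell factor from conditioned medium, equal to about 50 ng/ml. No clone was differentiated, and both genotypes carry the fusion and the hormone. The WT cells have the label's wild-type genotype with no other agent, and the KO cells lack tafazzin, the X-linked enzyme that remodels the mitochondrial phospholipid cardiolipin. Each line descends from 1 cell and gave 1 library, so a difference between clones and a difference between cultures or library preparations cannot be told apart. The number that opens each title, 1 or 2 in WT, is not explained in the labels.

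Granulocyte-monocyte progenitors are bone marrow and fetal liver cells that give rise to neutrophils and monocytes. At the promyelocyte step of neutrophil formation they fill primary granules with proteases and myeloperoxidase, and only later make the proteins of secondary granules. An active Hoxb8 fusion holds such cells in an immature, dividing state; when the hormone is withdrawn they mature.

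Levels are CPM, a gene's reads scaled to one common library size, with the sizes adjusted by TMM. The WT libraries held 21966954 to 27431544 gene counts, and 16346 to 16845 genes had at least 1 read. Reads in no gene made up 5.41 to 6.88% and ambiguous reads 2.76 to 2.93%. Counts of a pair of libraries were most alike for 1B and 1C, at a chi-square of 15.2 per gene where sampling noise alone gives about 1, so no 2 WT libraries were treated as 1. Taz, the gene of tafazzin, lay between 36.8 and 43.9 CPM in the 6 WT clones and between 2.20 and 4.08 CPM in the 5 KO clones, without overlap.

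The 4 markers of the progenitors were read in every clone. Mpo, which encodes myeloperoxidase, was at 11028 CPM in 1A, 8736 in 1B, 10056 in 1C, 13190 in 2D, 5865 in 2E and 11063 in 2F, and was the gene with the most reads. Kit, the receptor for stem cell factor, was at 599.3, 681.8, 729.5, 512.8, 782.6 and 727.0 CPM in the same order. Clone 2D was highest for Mpo and lowest for Kit, and 2E the reverse. Prtn3, which encodes proteinase 3, ran from 579.4 CPM in 2E through a median of 954.3 to 2408 in 2D. Elane, which encodes neutrophil elastase, was at 371.8, 30.2, 57.4, 821.7, 23.4 and 74.5 CPM. The highest clone was 2.25-fold the lowest for Mpo and 1.53-fold for Kit, against 4.16-fold for Prtn3 and 35.2-fold for Elane. All 4 markers were present in all 6 clones, and 2 of them, Elane and Prtn3, varied 4-fold or more.

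**Figure D1:**
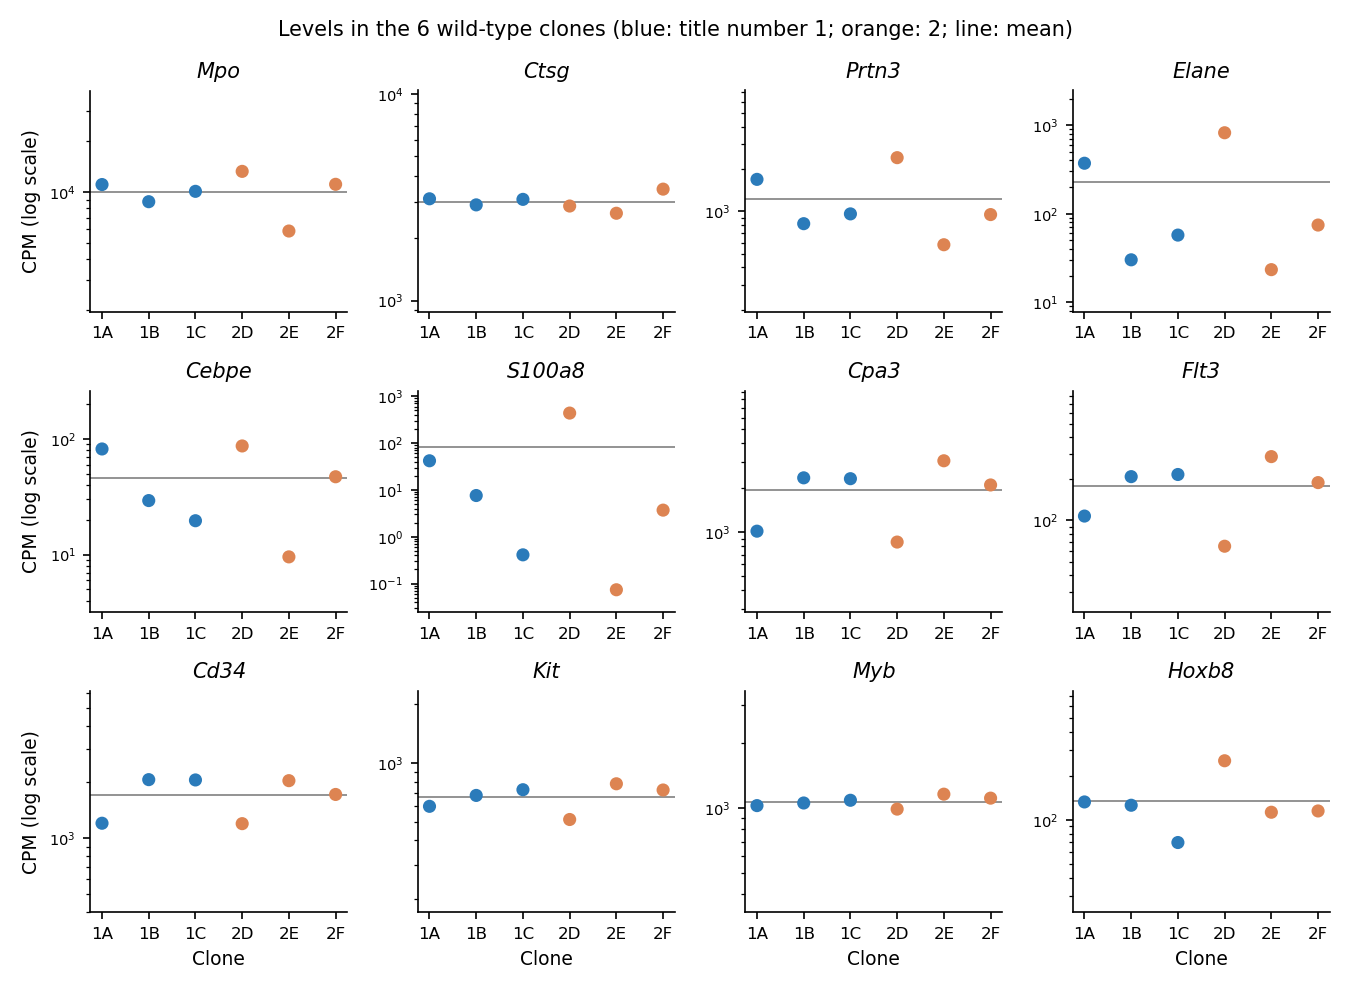
Levels of 12 genes in each of the 6 wild-type clones, in CPM on log scales that differ between panels; each point is 1 library and the line is the mean of the 6. Clones 2D and 1A sit highest for Elane, Prtn3, Cebpe and S100a8 and lowest for Cpa3, Flt3, Cd34 and Kit, while Ctsg and Myb differ by 1.31-fold and 1.17-fold.

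The transcripts with most reads were those of granule proteins, protein folding and protein synthesis. After Mpo the highest mean levels were those of Hsp90ab1 (5567 CPM), a cytosolic chaperone, Calr (5183 CPM), a chaperone of the endoplasmic reticulum that also binds new myeloperoxidase, and the elongation factor Eef2 (4237 CPM). Pabpc1, Ctsg, Eef1a1, Ncl, Actb and Atp5b completed the first 10, between 2452 and 3235 CPM. Together the first 10 genes held 4.18% of the reads and the first 100 held 14.9%, and 50% was reached only with 1107 genes. Per kilobase of annotated exon, a scale on which genes can be compared, Ctsg (2919 CPM per kb), the gene of cathepsin G, and Mpo (2918 CPM per kb) led, followed by Hsp90ab1 (1856 CPM per kb) and Calr (1800 CPM per kb). Cpa3, a mast cell and basophil carboxypeptidase, came sixth at 1279 CPM per kb, between the ribosomal protein gene Rplp1 (1516 CPM per kb) and Eef2 (1275 CPM per kb). Of the first 10 on this scale, 3 encode ribosomal proteins, Rplp1, Rpl4 and Rpl8. Ctsg was at 3111, 2907, 3091, 2870, 2648 and 3464 CPM, with the highest clone 1.31-fold the lowest, a smaller ratio than those of the granule proteases Prtn3 and Elane.

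Factors that set myeloid identity were present at moderate spread. Myb, which maintains blood progenitors, was at 1073 ± 61.0 CPM (SD, n = 6). Cebpa, which drives the granulocyte-monocyte fate, was at 527.1 ± 109.7 CPM, Gfi1, a repressor needed for neutrophils, at 187.9 ± 55.4 CPM, and Spi1, which encodes PU.1, at 152.4 ± 28.4 CPM (SD, n = 6 each). Irf8, a factor of the monocyte and dendritic branch, stood at 9.95 to 14.6 CPM. Of 43 listed myeloid transcription factors, 35 had a mean of at least 5 CPM. Of these, 3 (8.57%) varied 4-fold or more, near the 5.73% of all measured genes. Smaller differences were more common than among all genes. The median of the highest clone over the lowest was 1.75 for the 35, against 1.27 for all measured genes. At a mean of at least 20 CPM, 3 of 29 (10.3%) stayed under 1.2-fold, against 39.6% of all genes.

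Reads were counted under the mouse genes Hoxb8 and Esr1, the homeobox factor and an estrogen receptor; reads of the fusion and of the cells' own genes cannot be told apart here, and the species of the receptor sequence was not found in the labels. Hoxb8 was at 132.4, 125.7, 69.9, 253.2, 112.6 and 114.9 CPM in the clones 1A to 2F. Esr1 was at 163.8, 160.8, 92.2, 302.2, 137.8 and 144.4 CPM. Both were highest in 2D and lowest in 1C, by 3.62-fold and 3.28-fold. The neighbouring cluster gene Hoxb9 and the progenitor genes Hoxa9 and Hoxa10 had no read in any WT clone, and Hoxb7 only 0.0739 CPM in 2E. Meis1, a DNA-binding partner of HOX proteins, was at 23.7 to 67.9 CPM, highest in 2E. Of the 30 listed HOX and cofactor genes, 17 had no read in any WT clone.

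Markers of other blood lineages separate into those the clones hardly made and those they made in plenty. Of 20 listed T and NK cell genes, 17 averaged under 1 CPM, and Cd3e had no read in any clone; the summed list came to 13.4 to 28.7 CPM. Of 18 hepatocyte genes, 16 averaged under 1 CPM, with Alb at no read in 5 clones and 0.0430 CPM in 2D. The other 2 averaged at least 5 CPM and varied 4-fold or more, with Hnf4a the higher at a mean of 14.85 CPM. The summed hepatocyte list came to 5.945 to 49.8 CPM. Of 20 endothelial and stromal genes, 16 averaged under 1 CPM, and Cdh5 and Col1a1 had no read. The list's summed level of 914.0 to 1649 CPM was mostly Vim, the gene of vimentin, which blood cells also make. Macrophage marker C1qa also had no read.

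By contrast, genes known from mast cells and basophils were abundant: 12 of 18 averaged at least 5 CPM, and the list summed to 1915 CPM in 2D and 5563 CPM in 2E. Cpa3 was at 1011, 2334, 2303, 852.3, 3050 and 2087 CPM, and Hdc, which makes histamine, at 459.7 to 919.1 CPM. Mcpt8, a basophil protease, was at 74.2 to 183.0 CPM in 5 clones and at 589.7 CPM in 2E. Fcer1a, a chain of the mast cell IgE receptor, had no read in 5 clones and 0.0739 CPM in 2E. Siglecf, a surface lectin of eosinophils, was at 56.4 to 128.7 CPM. Of 19 listed B cell genes, 10 averaged under 1 CPM, 5 of them with no read, and 5 reached 5 CPM. Among these 5, Rag2, a part of the recombinase, was at 29.0 to 56.1 CPM and Ebf1 at 22.8 to 42.3 CPM in all 6 clones. Whether a few cells carry such transcripts or many do was not tested, since each library is a whole culture.

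Over the genome the clones were close. A gene counted as measured at a mean of at least 5 CPM, which 9413 genes reached; the median ratio of the highest clone to the lowest was 1.27. Where the lowest clone had fewer than 3 reads, 3 reads were used in this ratio, so it understates such genes. A ratio of 4 or more was reached by 539 genes (5.73%), and 1298 (13.8%) reached 2. At a mean of at least 20 CPM, 7350 genes, the median ratio was 1.24, and the range from the 5th to the 95th percentile was 1.08 to 2.61. The median coefficient of variation there was 8.12%, against 2.32% from read counting alone. With 2D left out, 364 of 9393 genes varied 4-fold, and with 1A and 2D left out, 233 of 9399 did. The genes nearest the limit were Extl3, just inside, and Ttc38, just outside.

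**Figure D2:**
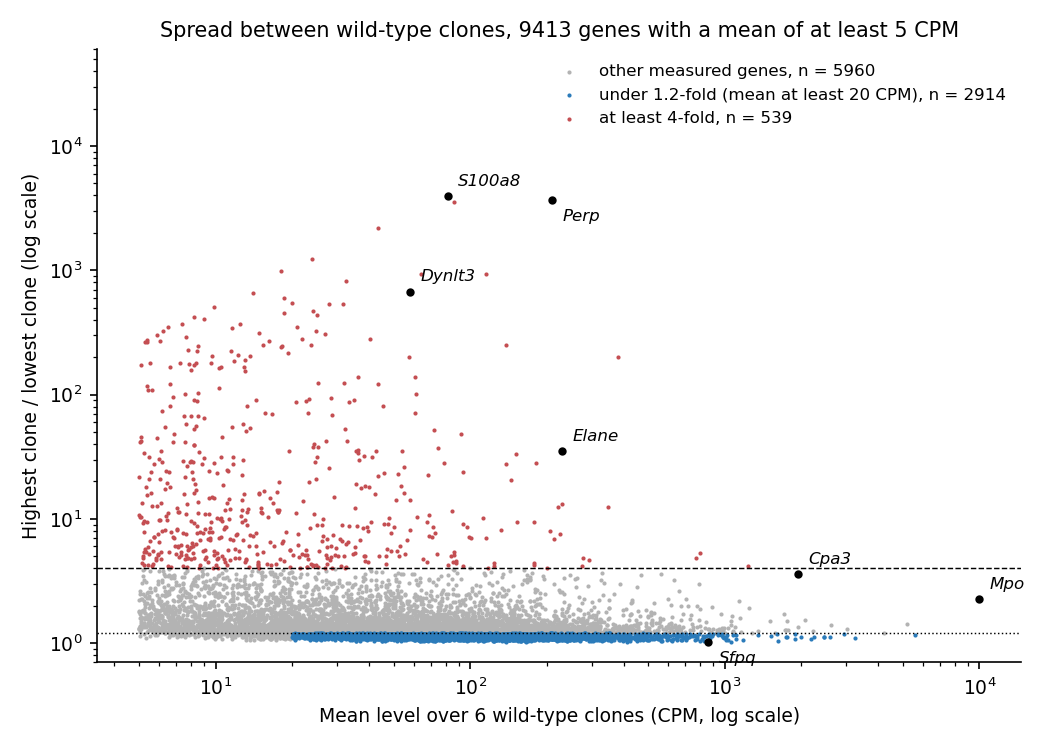
Ratio of the highest to the lowest of the 6 wild-type clones against the mean level in CPM, both on log scales, for 9413 genes; each point is a gene, with the lowest clone set to 3 reads where it had fewer. Red points, 539 genes, lie at 4-fold or more, and blue points, 2914 genes with a mean of at least 20 CPM, lie under 1.2-fold.

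Clone 2D was the lowest clone for 213 of the 539 varying genes (39.5%) and the highest for 119 (22.1%), and 2E was the highest for 164 (30.4%). Measured gene by gene, 1B and 1C were the closest pair, with a median absolute log2 difference of 0.0982, and 2D and 2E the most distant, at 0.271. In a principal component analysis of log2 CPM the first component took 45.5% of the variance, with 2D at -67.9, 1A at -32.1, 2E at 46.8 and the other 3 clones between 13.3 and 25.7. The extremes, 2D and 2E, carry the same title number.

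Genes that hardly differed were defined by a ratio under 1.2 at a mean of at least 20 CPM, and 2914 of 7350 genes (39.6%) met this, just inside it Gpam and just outside Mfng. Their median coefficient of variation was 4.74%, against 2.09% from counting. Sfpq, which encodes a splicing factor of nuclear paraspeckles, was at 859.8, 876.0, 864.7, 853.0, 860.8 and 855.2 CPM. Caprin1, which encodes an RNA-binding protein of stress granules, ranged from 1043 to 1069 CPM, and Suv39h1, a histone H3 methyltransferase, from 135.9 to 139.7 CPM. Zfr stayed between 165.8 and 171.6 CPM, and Tent4a between 34.8 and 35.9 CPM. No clone stood apart for these 5 genes, whose highest clone was at most 1.035 times the lowest.

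Lists of basic machinery differed in how many level genes they held. Of cytosolic ribosomal protein genes at 20 CPM or more, 49 of 52 met the 1.2-fold limit, of respiratory chain and ATP synthase genes 31 of 42, and of core spliceosome genes 19 of 25. For proteasome genes the count was 16 of 31 and for common reference genes 16 of 26, and for cell cycle genes 15 of 37, near the 39.6% of all genes. Of glycolysis genes 0 of 16 met it, with a median ratio of 1.34 for the 18 at 5 CPM or more, and of cholesterol synthesis genes 7 of 21. None of the ribosomal, respiratory, spliceosome, proteasome or reference genes on these lists varied 4-fold. Actb, a usual reference gene, ranged from 2478 to 2776 CPM. Ribosomal protein genes have many near-identical copies in the genome, so their levels are uncertain.

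**Figure D3:**
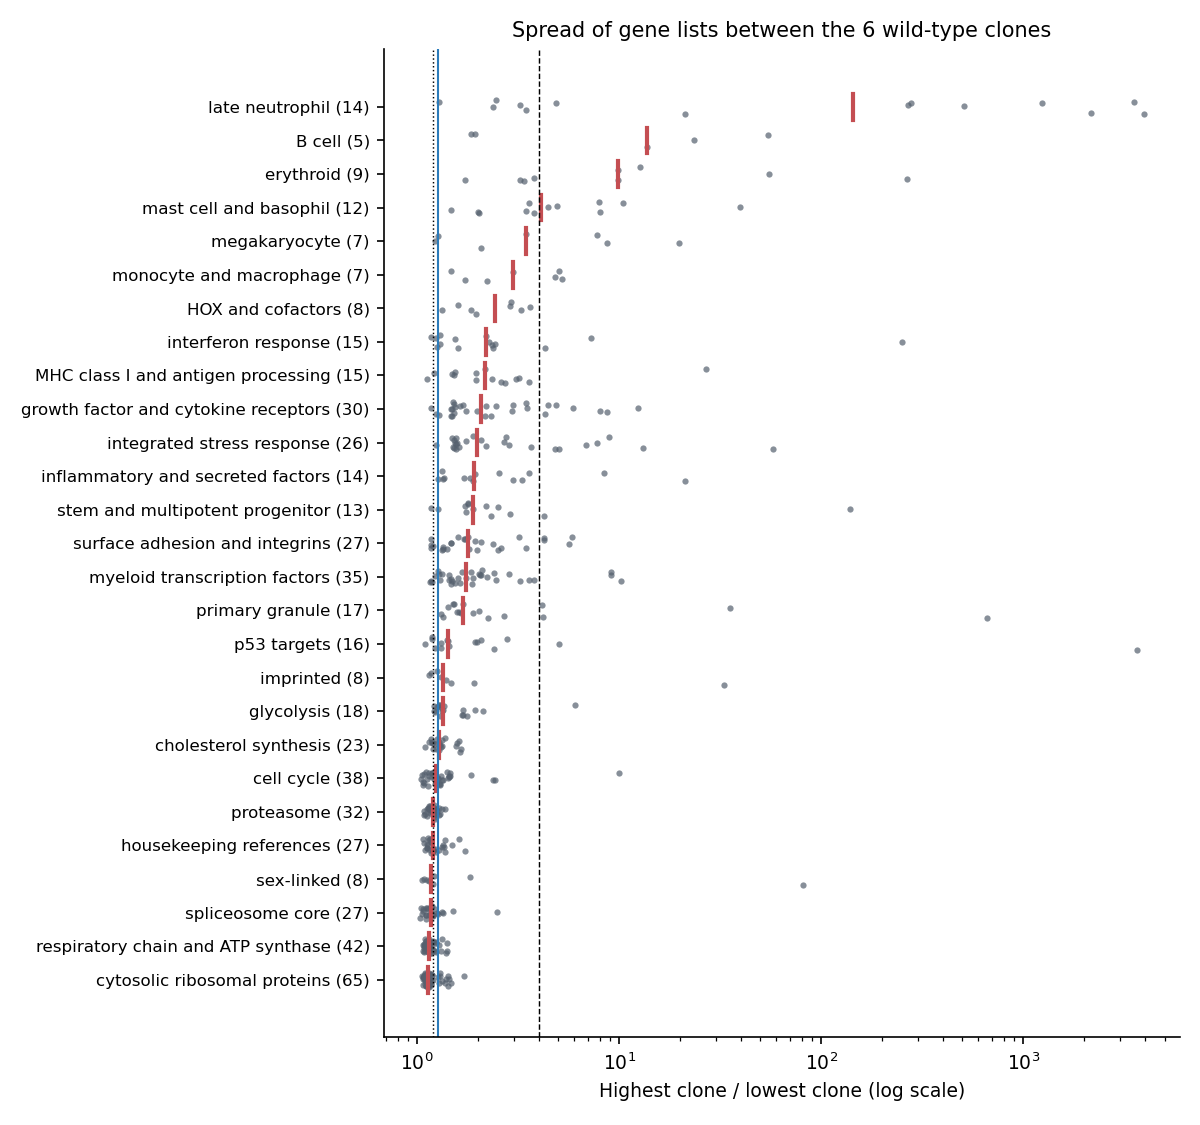
Ratio of the highest to the lowest wild-type clone, on a log scale, for every listed gene with a mean of at least 5 CPM; each row is a gene list with the number of such genes in brackets, the red bar is its median, and the blue line the median of all measured genes, 1.27. Dotted and dashed lines mark 1.2-fold and 4-fold, and the late neutrophil list spreads over the widest range, with its highest values in clone 2D.

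The lists with the widest spread were of lineage genes. On the late neutrophil list, genes of secondary granules and mature neutrophils, 14 of 20 averaged at least 5 CPM. Of these, 9 (64.3%) varied 4-fold or more, against 5.73% of all measured genes. With 2D left out, 9 reached 5 CPM, so several passed the level filter only through 2D. Of the 9, 2 then varied, against 364 of 9393 genes. S100a8, a subunit of calprotectin, was at 41.8, 7.58, 0.411, 436.3, 0.0739 and 3.70 CPM in the clones 1A to 2F. S100a9, the other subunit, was at 21.7, 9.15, 0.0913, 482.9, 0.148 and 5.44 CPM. In both, 2D was far above all others and 1C and 2E were near the limit of detection. Ltf, the gene of lactoferrin, was at 136.6 CPM in 2D and at no more than 3.28 CPM elsewhere. Ngp, a neutrophil granule protein, was at 240.6 CPM in 2D and at no more than 8.13 CPM elsewhere. Lcn2 and Chil3 of this list were also highest in 2D, at 95.6 and 56.6 CPM, as was Fcnb, the gene of ficolin B, at 73.1 CPM. Ly6g, a surface marker of mature neutrophils, stayed at or below 0.473 CPM in every clone. Not all members followed: Anxa1 was at 675.3 to 861.2 CPM, and Mmp8, the gene of a neutrophil collagenase, was highest in 1C at 40.0 CPM.

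Some other granulocyte genes gave a similar order of the clones. Cebpe, the factor that turns on secondary granule genes, was at 81.8, 29.3, 19.6, 86.9, 9.56 and 47.1 CPM. Like Elane and Prtn3 it was highest in 2D and 1A and lowest in 2E. Prg2, an eosinophil granule gene, followed with 56.6 CPM in 1A, 129.7 CPM in 2D and 1.48 to 4.92 CPM in the others. Csf3r, the receptor for the neutrophil growth factor G-CSF, shared only the ends, with 52.9 CPM in 2E and 129.1 CPM in 2D, while 1A, at 73.9 CPM, was second lowest. Of 17 matched primary granule genes, 4 (23.5%) varied 4-fold or more, against 5.73% of all measured genes. Without 2D, 2 of 16 did, against 364 of 9393 genes.

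Several genes of multipotent progenitors and monocytes had the opposite order. On the list of stem and multipotent progenitor genes, 13 averaged at least 5 CPM. Of these, 6 were lowest in 2D and 4 in 1A, and 6 were highest in 2E. Against this order, 3 were lowest in 2E, 2 highest in 1A and 1 highest in 2D. Flt3, a receptor of early progenitors, was at 107.2, 206.9, 214.4, 64.8, 288.9 and 187.3 CPM. Cd34 was at 1202 CPM in 1A and 1196 CPM in 2D, and at 1717 to 2063 CPM in the other 4 clones. F13a1, a gene of monocytes and their precursors, was at 268.4 CPM in 1A and 263.3 CPM in 2D, and at 901.9 to 1267 CPM elsewhere. Ccr2, a chemokine receptor of monocytes, was at 361.6 and 387.9 CPM in these clones and at 890.9 to 1080 CPM in the rest. For Cd34, F13a1, Ccr2, Flt3 and Cpa3 the clones 1A and 2D lay below the 4 others. These genes were picked because they separate the clones, and the share of all measured genes with this split was not counted. On the mast cell and basophil list, to which Cpa3 belongs, 9 of 12 genes at 5 CPM or more were lowest in 2D. Only 1 was lowest in 1A, and 2 were highest there. The order of the clones was not tested against anything outside these libraries. The monocyte and macrophage list had 7 genes at 5 CPM or more, and the clone order of those other than F13a1 and Ccr2 was not counted.

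Some lineage genes were high in a single clone. Of the 21 listed erythroid genes, 9 averaged at least 5 CPM, and 6 of these were highest in 1A; without 1A, 5 reached that level, so some passed only through it. The summed list was no higher in 1A (1487 CPM) than in 1B (1498 CPM). Of the 9, Klf1, the erythroid Krueppel-like factor, was at 19.8 CPM in 1A against 2.02 to 6.13 elsewhere, Car1, carbonic anhydrase 1, at 30.3 CPM against 0.548 to 3.77, and the adult globin gene Hbb-bs at 29.6 CPM against 0.111 to 1.17. Gata1, the factor above them, was at 39.2 CPM in 1A and 10.4 to 24.6 CPM elsewhere, while Hba-a1 had a read only in 1C. In 2E, Alox5, the gene of 5-lipoxygenase, was at 25.7 CPM against 0.172 to 0.457 CPM in the others, and Pf4, platelet factor 4, at 25 CPM against 3.22 to 10.1 CPM. Dntt, the terminal transferase of lymphoid precursors, was at 42.0 CPM in 2E and 0.774 CPM in 2D, and Igll1, a surrogate light chain, was at 44.8 CPM in 2D against 1.91 to 5.32 CPM. The integrated stress response list, ATF4 targets and amino acid supply genes, had 26 measured members. Of these, 7 (26.9%) varied 4-fold, against 5.73% of all measured genes. Without 2D, 1 of 24 did, against 364 of 9393 genes. Of the list's 26 members, 22 were highest and 2 lowest in 2D, and 15 were lowest in 1C. Trib3, one of its targets, was at 23.3 CPM in 2D and 1.78 to 7.5 CPM in the others, and Cth, which makes cysteine, at 26.3 CPM in 2D and 0.457 to 12.1 CPM in the others.

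Promoter sequences of examples from both ends of the spread are shown, since base composition is a feature that expression did not choose. Each line gives the 250 bases before the annotated start, from RefSeq on GRCm38.p6, 5′ to 3′ on the gene's strand, with capitals marking CG dinucleotides and the letters TATAAA. S100a8 (chr3:90668821-90669070, plus strand), S100a9 (chr3:90695722-90695971, minus strand), Ltf (chr9:111019042-111019291, plus strand) and Elane (chr10:79886062-79886311, plus strand) are neutrophil genes that varied 4-fold or more, and Sfpq (chr4:127021051-127021300, plus strand) and Caprin1 (chr2:103797079-103797328, minus strand) were level.
S100a8: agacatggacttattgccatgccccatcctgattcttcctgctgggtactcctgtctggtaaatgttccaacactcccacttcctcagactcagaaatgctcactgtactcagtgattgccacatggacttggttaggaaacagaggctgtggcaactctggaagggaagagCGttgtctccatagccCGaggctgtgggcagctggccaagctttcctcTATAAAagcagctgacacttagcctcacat
S100a9: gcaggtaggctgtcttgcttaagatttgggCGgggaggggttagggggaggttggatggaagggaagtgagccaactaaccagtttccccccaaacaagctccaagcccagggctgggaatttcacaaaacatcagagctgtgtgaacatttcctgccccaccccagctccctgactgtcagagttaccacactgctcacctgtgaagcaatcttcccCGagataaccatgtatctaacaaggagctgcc
Ltf: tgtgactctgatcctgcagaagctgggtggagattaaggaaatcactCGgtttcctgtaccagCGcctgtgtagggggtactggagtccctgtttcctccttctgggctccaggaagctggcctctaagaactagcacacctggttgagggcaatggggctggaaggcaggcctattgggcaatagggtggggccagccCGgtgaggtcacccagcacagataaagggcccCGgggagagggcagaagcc
Elane: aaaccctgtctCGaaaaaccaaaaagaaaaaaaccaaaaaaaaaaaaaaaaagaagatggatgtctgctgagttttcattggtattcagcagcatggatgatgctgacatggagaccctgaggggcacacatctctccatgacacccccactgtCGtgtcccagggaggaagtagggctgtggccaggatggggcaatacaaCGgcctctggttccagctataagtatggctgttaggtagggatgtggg
Sfpq: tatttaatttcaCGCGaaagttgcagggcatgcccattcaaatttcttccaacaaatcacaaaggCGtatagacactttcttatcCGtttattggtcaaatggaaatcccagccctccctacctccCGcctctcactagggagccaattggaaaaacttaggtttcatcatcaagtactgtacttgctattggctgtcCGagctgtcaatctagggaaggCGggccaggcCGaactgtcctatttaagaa
Caprin1: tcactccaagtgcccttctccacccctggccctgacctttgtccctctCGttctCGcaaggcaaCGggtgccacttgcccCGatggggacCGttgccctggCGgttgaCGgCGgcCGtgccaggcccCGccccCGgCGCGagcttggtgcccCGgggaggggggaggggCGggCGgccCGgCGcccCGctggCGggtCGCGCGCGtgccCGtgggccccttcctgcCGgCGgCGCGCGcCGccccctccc

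These windows held 2 CG dinucleotides for S100a8, 2 for S100a9, 4 for Ltf and 3 for Elane, against 8 for Sfpq and 31 for Caprin1. Over the late neutrophil genes at 5 CPM or more with a promoter in RefSeq, 13 of 14, the median was 3 and 0 had 10 or more. As some of these reached that level only through 2D, the whole list was counted too, and for 19 of its 20 genes the median was again 3 and 0 had 10 or more. Level genes, with a promoter for 2381 of 2914, had a median of 18, and 86.1% had at least 10; for all measured genes with one, 7623 of 9413, the median was 17 and the share 79.1%. TATAAA on either strand, counted as TATAAA or TTTATA, was in 2 of the 13 windows (15.4%) and 6 of the 19 (31.6%), in 4.62% of the level genes' and 5.63% of the measured genes' windows, and in 13% of all 27025 promoters. Over all 27025 promoters the median number of CG dinucleotides was 6, and 38.2% had at least 10. For the 539 varying genes the comparison is void, because only 77.9% had a promoter in the table. Whether the neutrophil examples shown stand for the varying genes in general was therefore not determined. A match of letters is a description of these windows and no evidence of binding.

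A second kind of spread was that of a gene far lower in 1 clone than in the other 5. A gene was counted as low in 1 clone where the next clone was at least 4-fold higher and the other clones averaged at least 5 CPM. This was so for 143 of 9424 genes (1.52%), of which 62 were low in 2D, 28 in 2E, 18 in 2F, 16 in 1A, 11 in 1C and 8 in 1B. In 38 of them the low clone had at most 3 reads, and at the other end Sdc1 had 863 reads in 2D. High in 1 clone, with all others at least 4-fold lower, were 35 of 9413 genes (0.372%), 17 of them in 2D, 10 in 1A and none in 1B. In only 9 of the 35 did the other clones average 5 CPM, so most passed the level filter through the clone where they were high.

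Dynlt3, an X-linked gene of a dynein light chain, was at 65.2 to 73.5 CPM in 5 clones and had 1 read, 0.0365 CPM, in 1B. The median of the other clones was 1889-fold that level, with a 95% counting interval of 339 to 74606. Nt5c3b, which encodes a cytosolic nucleotidase, was at 18.4 to 38.5 CPM in 5 clones and had no read in 2F, at least 147.7-fold below the lowest other clone. Apart from the silent clone, Dynlt3 was as level as the constant genes. Tdrkh, a gene of the piRNA pathway, was at 48.3 to 107.3 CPM in 5 clones and had 1 read in 1A, where the ratio of the others' median was 2159 (95% counting interval 387.5 to 85284). Perp, a p53 target at desmosomes, was at 0.0766 CPM in 1A, 17.2 CPM in 2D and 230.9 to 419.3 CPM in the other 4. Intervals and floors here cover counting error only.

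The other clones gave further examples. In 2E, Gpc3, an X-linked glypican of the cell surface, was at 2.95 CPM against 250.4 to 591.2 CPM, and Lin28b, the fetal regulator of let-7 processing, at 1.07 CPM against 46.9 to 147.8 CPM. In 2F, Fut4, a fucosyltransferase, had no read, at least 77.4-fold below the lowest other clone, and Npepl1 was at 0.914 CPM against 50.9 to 92.6 CPM. In 1C, Crip1, a LIM-domain protein gene, had no read, at least 49.2-fold below the lowest other clone, and Isyna1, which makes inositol phosphate, was at 9.22 CPM against 179.5 to 260.0 CPM.

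**Figure D4:**
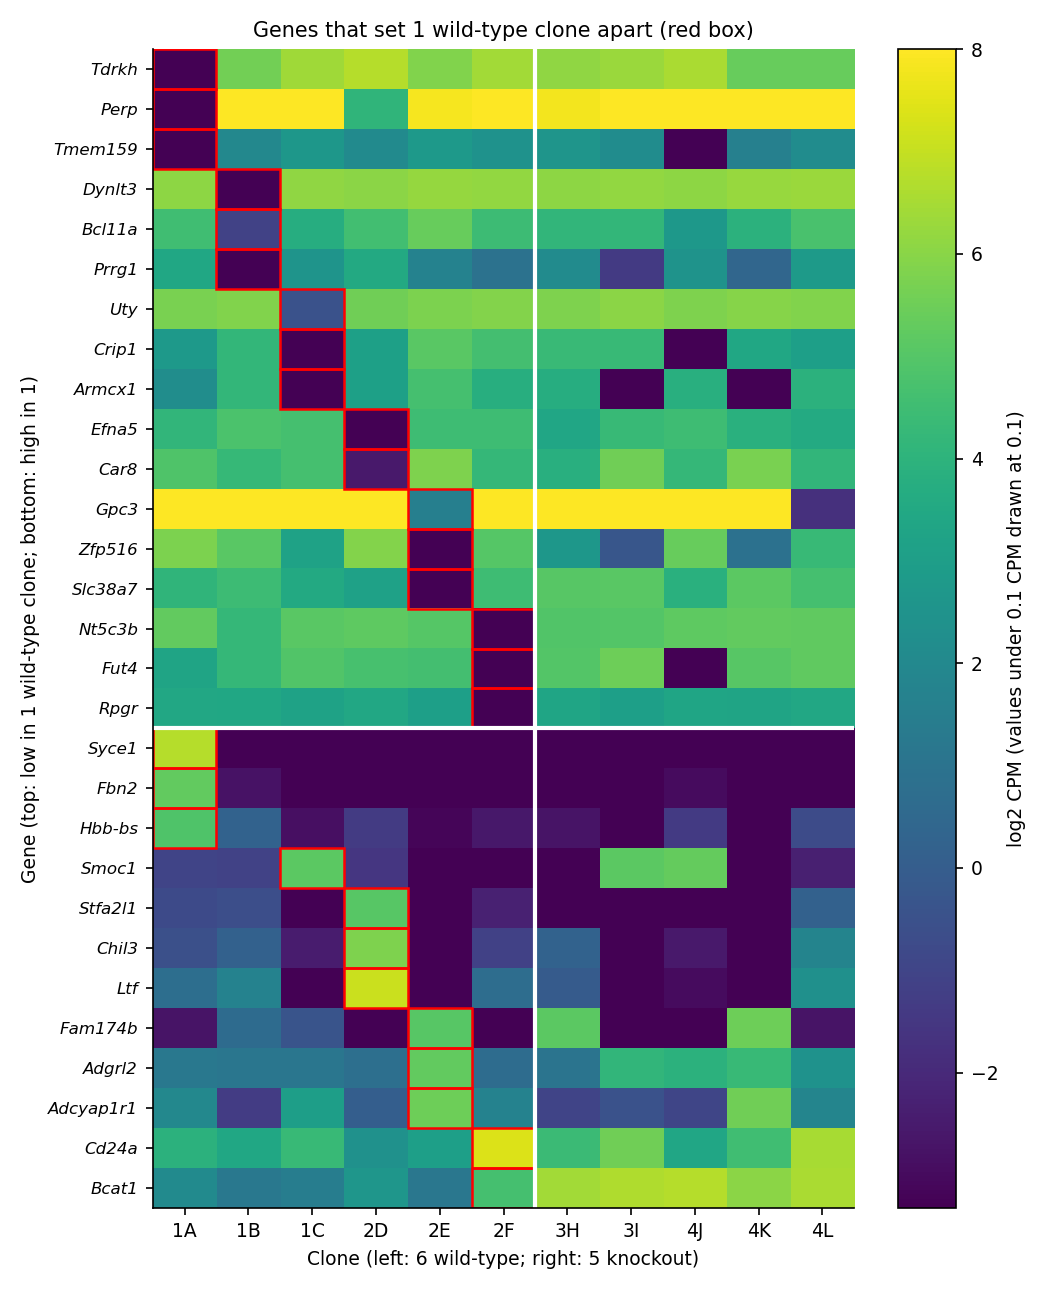
Levels as log2 CPM of the genes that set 1 wild-type clone apart, up to 3 per clone and direction, in the 6 wild-type and 5 knockout clones; values under 0.1 CPM are drawn at 0.1 and red boxes mark the clone that stands apart. Dynlt3 is dark only in 1B and Nt5c3b only in 2F, while Gpc3 and Fut4 are dark in 1 knockout clone as well.

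Neighbours of the low genes were examined next. The nearest measured gene on either side, by gene order in GRCm38, gave 279 neighbours; in the clone where the gene was low, 229 of them (82.1%) were within 1.5-fold of the other clones' median, and 20 (7.17%) were at least 4-fold below it. Over all measured genes and clones these shares were 93.0% and 0.765%, so most neighbours were near the other clones' level, though fewer than among all genes. The low neighbours included runs of related genes. Low genes side by side were counted as each other's neighbours, Bex3 and Tceal9 once each way and Gbp4 and Gbp9 more than once. The 279 are therefore not all different genes, and the share of low neighbours counts such runs repeatedly. In 2D the guanylate-binding protein genes Gbp4, Gbp8 and Gbp9, neighbours on chromosome 5 and induced by interferon elsewhere, had no read, while the other clones had 4.94 to 69.2, 1.88 to 21.2 and 7.12 to 31.4 CPM. These 3 genes overlap in the annotation, and reads that fit more than 1 gene fall under ambiguous, so their levels may be understated. In 2D, too, the T cell costimulatory genes Icos and Cd28, both on chromosome 1, were at 0.430 and 0.559 CPM, against 5.98 to 23.7 and 9.95 to 17.7 CPM. In 1B the X-linked neighbours Bex3 and Tceal9 were at 1.75 and 1.90 CPM, against 22.4 to 45.0 and 23.4 to 56.4 CPM.

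Medians over whole chromosomes lay close to 0. The median log2 ratio of a clone to the median of the 6, over the genes of 1 chromosome at 20 CPM or more, lay between -0.0554 and 0.0306 for the 19 autosomes and X, with the lowest value for X in 2D and -0.0178 the lowest outside X. On Y, with only 4 such genes, it lay between -0.122 in 1C and 0.0922 in 2F. Of 140 low genes with a known chromosome, 11 (7.86%) were on X, against 3.01% of all measured genes, a description of a small number. Uty on Y was at 0.731 CPM in 1C and at 47.3 to 59.6 CPM in the others, while its Y neighbours Ddx3y and Eif2s3y were at 98.8 and 81.0 CPM in 1C, and within 98.1 to 109.6 and 84.7 to 92.6 CPM in the others. Kdm5d, a Y-linked demethylase gene, was at 41.0 to 49.5 CPM. Xist, the RNA of the inactive X, had no read in any clone, which allows at most 0.109 to 0.137 CPM.

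Among the genes high in 1 clone, Syce1, a gene of the meiotic synaptonemal complex, was at 107.9 CPM (2818 reads) in 1A, had 1 read in 2D and none in the other 4. Smoc1, a secreted calcium-binding protein, was at 35.7 CPM in 1C and at most 0.498 CPM in the others. Fam174b was at 33.7 CPM in 2E and at most 1.53 CPM elsewhere, and Cd24a, a surface glycoprotein of early blood cells, at 169.5 CPM in 2F against 5.25 to 19.5 CPM. Some genes split the clones into groups instead. Casp1, the inflammatory caspase, was at 52.3, 46.2 and 46.2 CPM in 1B, 1C and 2D, and had no more than 1 read in 1A, 2E and 2F. Bmpr1a, a receptor for bone morphogenetic proteins, was at 60.0, 37.4 and 94.8 CPM in 1B, 1C and 2F, and at 0.0383, 1.81 and 0.185 CPM in 1A, 2D and 2E. Hs6st2, a heparan sulfate sulfotransferase, was at 42.9 CPM in 1C and 68.3 CPM in 2E and at most 0.438 CPM in the others. The set of clones without the gene was a different one for each of these 3.

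The title number was compared as the only grouping the labels give within the WT clones, with 1A, 1B and 1C under 1 and 2D, 2E and 2F under 2. No gene passed: edgeR's quasi-likelihood test called 0 of 12008 genes (0%) at an adjusted p under 0.05, and 254 (2.12%) had an unadjusted p under 0.05. DESeq2 called 8 higher and 5 lower of 11951, and limma-voom called 0. Smad1, a signal carrier below bone morphogenetic protein receptors, was at 0.766, 0.656 and 1.14 CPM under number 1 and at 9.85, 10.3 and 13.7 CPM under 2, a log2 difference of 3.72 ± 0.30 (SE; edgeR adjusted p = 0.253). Cbr1, a carbonyl reductase, was at 13.1, 20.2 and 11.6 CPM under number 1 and at 0.731, 1.33 and 0.706 CPM under 2, a log2 difference of -4.01 ± 0.38 (SE; edgeR adjusted p = 0.286). Neither gene passed the test. Both were named after their values were seen, and how many of the 12008 genes keep the 2 sets of clones apart was not counted. In simulated counts at this size the test recovered 64 of 100 genes changed 2-fold and 86 of 100 changed 4-fold. The changed genes were taken from those averaging over 100 reads, and noise was drawn for each gene on its own. No simulated clone stood apart over many genes, so these shares may overstate what the test can find in these clones. The p-values measure the spread between these clones, whose independence the labels do not state.

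The same measure of spread was taken among the 5 KO clones. Of 9230 genes with a mean of at least 5 CPM in both genotypes, 430 (4.66%) varied 4-fold among the WT clones and 269 (2.91%) among the KO clones, and 191 did in both, which is 44.4% of the first and 71.0% of the second. Over any 5 WT clones the count was 287 to 409, the lowest without 2D. Of 7199 genes at 20 CPM or more in both, 2894 (40.2%) were within 1.2-fold in WT and 4561 (63.4%) in KO, with 2560 in both, 88.5% of the WT and 56.1% of the KO genes. Over any 5 WT clones 3053 to 4043 genes were. Median biological variation between clones, the coefficient edgeR estimates per gene, was 15.7% in WT and 12.8% in KO. The difference between genotypes in spread was not tested.

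Genes of the neutrophil order varied in both sets. Elane was at 49.8, 8.85, 73.6, 2.25 and 147.0 CPM in KO 3H, 3I, 4J, 4K, 4L, and S100a8 at 7.86, 0.339, 3.60, 0.141 and 30.0 CPM. Clone 4L was highest and 4K lowest for both, with 65.3-fold between them for Elane. Ltf did not pass 5.16 CPM in any KO clone, so for this gene the 136.6 CPM of 2D had no counterpart there. Lcn2 differed, with a KO median of 42.33 CPM and a highest KO level of 66.97 CPM. In WT it was at 95.63 CPM in 2D and at most 14.58 CPM in the other clones. Of 108 genes low in 1 WT clone whose KO median was at least 5 CPM, 31 (28.7%) were low in a KO clone too. Low here meant at least 4-fold under the KO median, which held for 140 of 9195 measured genes (1.52%). Most of the 31 were low in 2E, and most of those had their lowest KO level in 4K, among them Thbs1, Mtus1 and Tfec. The share was therefore carried largely by this pair of clones and was not even over the WT clones. Gpc3 was at 0.301 CPM in 4L against 372.8 to 610.0 CPM in the other KO clones, and Fut4 at 0.0424 CPM in 4J against 31.6 to 45.0 CPM. Lin28b was at 0.0469 CPM in 4K against 14.4 to 48.9 CPM. Bmpr1a was at 0.0423 and 0.141 CPM in 3I and 4K and at 19.8 to 109.2 CPM in the other 3. Dynlt3, at 67.3 to 77.5 CPM, Nt5c3b, at 30.4 to 39.3 CPM, and Perp, at 224.4 to 390.6 CPM, were read in all 5 KO clones.

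**Figure D5:**
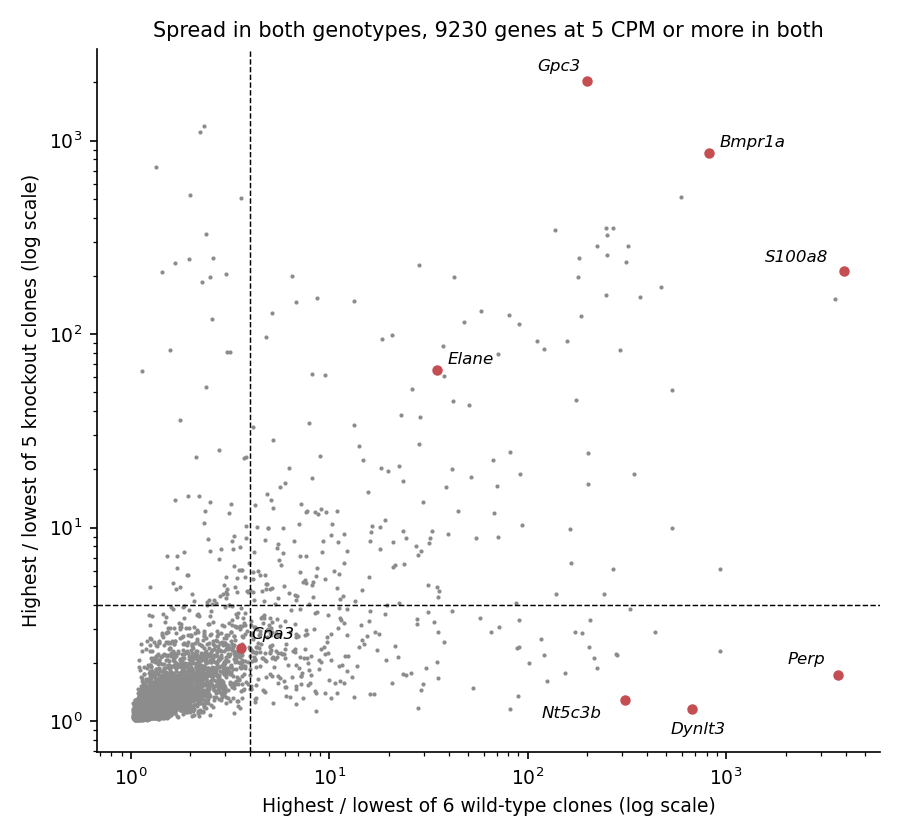
Ratio of the highest to the lowest clone among 6 wild-type clones (x axis) and among 5 knockout clones (y axis), both log scales, for 9230 genes with at least 5 CPM on average in both; each point is a gene and dashed lines mark 4-fold. Gpc3, Bmpr1a, S100a8 and Elane are above 4-fold in both, and Perp, Dynlt3 and Nt5c3b only among the wild-type clones.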

How the data were processed

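PolyA-selected RNA of 6 WT and 5 KO clones was sequenced as 1 library per clone, per the labels' protocols. For each clone the authors deposited 1 column of raw read counts by Ensembl gene. The submitters' processing notes name STAR, HTSeq, edgeR and mm9 with no version; an annotation release was not found in them. Counting ignored strand, as the deposited counts are marked, so a gene and an overlapping antisense gene cannot be told apart. Reads with several matches were not counted, and lines that name no gene were left out of the totals.

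Clones were grouped by title. Of 37583 gene IDs, 32860 (87.4%, 99.57% of WT counts) matched names and exon lengths of a GRCm38 annotation, used for names, chromosome, order and length only. CPM used TMM-scaled totals (factors 0.99 to 1.01); 3 counts was the floor and intervals are exact Poisson at 95%. Title numbers were set against each other by the robust quasi-likelihood test of edgeR, with filterByExpr and Benjamini-Hochberg adjustment, checked on simulated counts (10 false calls among 160). No test was used for the spread. Named genes came from a rule: the markers, the most abundant, the 20 most varying and 10 most level genes, up to 3 per clone and direction that stood apart, cell type and HOX markers, and from each of 33 lists the most abundant and the 2 most spread members; a few of these are not reported here. Bex3, Cbr1, Cd28, Cebpa, Gbp8, Gbp9, Gfi1, Icos, Isyna1, Npepl1, Smad1, Spi1, Taz and Tceal9 were added after their values were seen, and further genes were named as neighbours of these or as examples of a list. The members, lists and rules were chosen with earlier results of these data known. Alternatives were other scalings, level filters, folds, tests, thinning and leaving out clones. Fits ran in R 4.3.3 with DESeq2 1.42.0, edgeR 4.0.16 and limma 3.58.1, and the rest in Python 3.11.15 with pandas 2.3.3, scipy 1.17.1, matplotlib 3.10.9 and numpy 2.4.6.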

Additional observations from a re-analysis of the deposited data

Results flagged for a closer look

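In a group of 6 clones, a value was marked where the gap from the highest or lowest clone to its nearest neighbour passed Dixon's 95% critical share of the whole range; 29 of 126 library measures, list sums and named genes met this. Chance alone marks about 1 in 20, and many of these genes were named because 1 clone stood apart, so the number of marks is set by that choice.

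Clone 2D was the far high value for the summed late neutrophil list (2728 CPM against 886.8 to 1126 CPM) and for the summed HOX and cofactor list (771.2 CPM against 379.5 to 499.3 CPM). Without Hoxb8 and Esr1, the latter list was at 215.8 CPM in 2D, inside the 198.8 to 245.6 CPM of the other clones. Within them it was so for S100a8 (436.3 CPM), S100a9 (482.9 CPM), Ltf (136.6 CPM), Ngp (240.6 CPM), Lcn2 (95.63 CPM), Chil3 (56.57 CPM), Hoxb8 (253.2 CPM) and Esr1 (302.2 CPM). Outside them it was so for Fcnb (73.13 CPM), Igll1 (44.82 CPM) and Trib3 (23.32 CPM). The same clone had the highest levels of Hoxb8 and Esr1 and of 11 of the 14 late neutrophil genes at 5 CPM or more. Only 9 genes of that list reached 5 CPM without 2D, so several entered this count through 2D itself. A relation of Hoxb8 or Esr1 to these genes was not tested.

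Clone 1A stood far above the rest for Syce1 (107.9 CPM), Hbb-bs (29.55 CPM), Car1 (30.32 CPM) and Klf1 (19.83 CPM). Clone 2E did for Mcpt8 (589.7 CPM), Meis1 (67.87 CPM), Fam174b (33.71 CPM), Alox5 (25.7 CPM) and Pf4 (25 CPM), and lay lowest for Pabpc1 (3024 CPM against 3220 to 3335 CPM). Clone 2F was far highest for Cd24a (169.5 CPM) and for Rplp1 (840.4 CPM against 718.1 to 761.0 CPM), and 1C for Smoc1 (35.66 CPM).

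Far low values were those of Dynlt3 in 1B (0.03646 CPM), and of Uty (0.7306 CPM) and Isyna1 (9.224 CPM) in 1C.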

How the results depend on the processing

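The comparison of title numbers gave 0 calls with edgeR under other scalings, filters and a non-robust fit, with all 11 clones, without the 10 most abundant genes, with limma-voom, and with each WT clone left out in turn (0 to 0 calls); DESeq2 called 13 genes. The count of genes varying 4-fold stayed between 536 and 542 under other scalings and with thinned counts, was 1098 at a mean of 1 CPM, 209 at 20 CPM, 1298 for 2-fold and 318 for 8-fold, and 364 to 516 with each clone left out, lowest without 2D. The count of genes within 1.2-fold was 2861 to 2913 under other scalings and thinning, 3131 at 5 CPM, 2227 at 50 CPM, 686 for 1.1-fold and 5964 for 1.5-fold, and 3071 to 4072 with each clone left out, highest without 2D. Without 1A and 2D together, an alternative chosen after seeing the data, 233 genes varied and 5465 were within 1.2-fold; fewer clones make a ratio smaller by construction. Other scalings moved no mean level of the 89 named genes by more than 1.01-fold, but leaving out 1 clone moved 24 of them over 1.5-fold, 12 of these without 2D, 5 without 2E, 4 without 1A, 2 without 2F and 1 without 1C. For example S100a8 went from 81.7 to 10.7 CPM and Elane from 229.8 to 111.5 CPM without 2D, Alox5 from 4.49 to 0.252 CPM without 2E, and Syce1 from 18.0 to 0.00860 CPM without 1A. No paired analysis was possible because the 2 genotypes share no replicate labels. Depth limits low levels: a gene with no read may lie at up to 0.109 to 0.137 CPM.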
